A study of Homo sapiens with 12 samples.

Results

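The 50 genes described here encode the machinery that copies DNA and the regulators that start S phase: origin licensing factors, the replicative helicase and its activators, DNA polymerases, the sliding clamp and its loaders, enzymes of nucleotide supply, chromatin assembly factors, fork protection proteins and G1/S regulators. They were taken as a list of gene symbols out of the 36137 genes in the count table, and all 50 were found and passed the filter on low counts. The list was drawn up with earlier results of these data known. RNA was measured by sequencing in LNCaP, an androgen-sensitive prostate cancer cell line that came from a lymph node metastasis. Cells were transfected with siRNA targeting PXN, whose product paxillin is an adaptor at focal adhesions, or given a non-specific siRNA, for 48 h, were then kept without serum for 12 h, and were treated for 24 h with 2.5 nM dihydrotestosterone (DHT, the androgen that activates the androgen receptor) or with the ethanol vehicle. This gave 4 groups of 3 libraries each: PXN siRNA with DHT, PXN siRNA with vehicle, non-specific siRNA with DHT, and non-specific siRNA with vehicle. All 4 groups shared the transfection and the serum starvation. Nothing in the labels states that the replicates are independent cultures, and p-values therefore describe the spread between these libraries, which may be technical. The labels give neither the number nor the sequence of the PXN siRNAs, and 1 cell line was used.

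In G1, the origin recognition complex together with CDC6 and CDT1 loads the MCM2 to MCM7 ring onto DNA, which licenses an origin. At the start of S phase, CDC45 and the GINS complex join that ring to form the active helicase, and polymerases, clamp and ligase follow it. Many of these genes are known E2F targets: cyclin-dependent kinases inactivate the retinoblastoma family late in G1 and so release E2F factors to activate them, and E2F7 and E2F8 later repress the same set. In prostate cancer cells, androgen is known to stimulate proliferation.

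Library totals lay between 34321000 and 38633456 counts, so that 1 CPM (counts scaled to a fixed library size, after TMM) stood for 33.7 to 38.2 counts. PXN averaged 18.2 ± 1.70 CPM with PXN siRNA and DHT, 17.1 ± 3.58 CPM with PXN siRNA and vehicle, 106 ± 7.03 CPM with non-specific siRNA and DHT, and 108 ± 2.93 CPM with non-specific siRNA and vehicle (SD, n = 3 each). The luminal prostate markers were present in all groups, and 4 of the 9 markers of other cell types found in the table (KRT5, TP63, PECAM1 and PTPRC) had group means between 0 and 0.0482 CPM. The other 5 were tested: COL1A1 and TAGLN rose with PXN siRNA under both treatments, COL3A1 and LUM fell under both, and KRT14, whose group means were at most 0.439 CPM, fell under DHT. All 9 summed to 44.5 to 49.6 CPM with PXN siRNA and DHT, 40.7 to 45.4 CPM with PXN siRNA and vehicle, 27.9 to 33.9 CPM with non-specific siRNA and DHT, and 29.98 to 37.4 CPM with non-specific siRNA and vehicle. COL1A1, a fibrillar collagen, made up most of these sums, with means of 35.1 CPM (DHT) and 30.4 CPM (vehicle) with PXN siRNA, against 19.9 CPM (DHT) and 20.5 CPM (vehicle) with non-specific siRNA. The 9 luminal markers summed to 3244 to 3643 CPM with PXN siRNA and DHT, 2749 to 3172 CPM with PXN siRNA and vehicle, 6496 to 6708 CPM with non-specific siRNA and DHT, and 4220 to 4763 CPM with non-specific siRNA and vehicle. Mitochondrially encoded genes held 8.13% to 8.95% of counts in PXN siRNA libraries and 4.69% to 7.55% in non-specific siRNA libraries. Whether any of these shifts has a part in the results on replication genes was not tested. In these bulk samples, fewer cells in S phase and less RNA per cell cannot be told apart. PXN siRNA with vehicle replicate 2 stood apart from its group: 47 of the 50 genes were highest there among its 3 libraries. In the comparisons that use this library, the members called and the members' median are therefore also given without it. Subgroup values, counts above 0 and counts at an unadjusted p are given only with it.

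Several of these genes carry E2F-type words close to a RefSeq start. TTTCCCGC, TTTCGCGC, TTTGCCGC and TTTGGCGC were searched on both strands of RefSeq promoter windows (GRCh38.p14). A window ran from 250 bases before to 50 bases after a RefSeq start, and 1 window was read per gene. Some windows lie far from the gene's first base in GENCODE. The window begins at 58392221 for GINS3, 94545538 for HELLS, 4909251 for UHRF1 and 10122489 for RRM2. Those genes begin at 58295080, 94501434, 4903080 and 10120698. At least 1 word was found in 23 of the 43 members with a window, or 53.5%, against 3.33% of the windows of 27305 genes. CCAAT, also read on both strands, was found in 26 members or 60.5%, against 35.7% of all windows. TTTGAA, the core of the cell cycle homology region of mitotic promoters, was found in 1 member (RRM1) or 2.33%, against 15.4% of all windows. The E2F words overlap one another on opposite strands where a window holds TTTGGCGCGAAA, and in 1 member an E2F word overlaps a CCAAT word. Among the members with a window, those printed are the 3 with the lowest log2 fold change for PXN siRNA under vehicle (MCM10, CDC45, CLSPN), the 3 with the highest (UNG, POLE, CCNE1), and MCM6, the member with the most E2F words, counting both strands. MCM6 was added after its sequence was seen. Each is written 5′ to 3′ on the gene's strand, and capitals mark E2F words and CCAAT or its reverse complement ATTGG.
MCM10 (chr10:13161308-13161607, plus strand): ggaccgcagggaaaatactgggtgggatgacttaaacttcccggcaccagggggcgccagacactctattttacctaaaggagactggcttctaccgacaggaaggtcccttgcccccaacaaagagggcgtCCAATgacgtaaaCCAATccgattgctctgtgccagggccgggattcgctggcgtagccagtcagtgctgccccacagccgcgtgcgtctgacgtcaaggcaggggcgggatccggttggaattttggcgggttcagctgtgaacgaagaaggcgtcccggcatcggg
CDC45 (chr22:19479670-19479969, plus strand): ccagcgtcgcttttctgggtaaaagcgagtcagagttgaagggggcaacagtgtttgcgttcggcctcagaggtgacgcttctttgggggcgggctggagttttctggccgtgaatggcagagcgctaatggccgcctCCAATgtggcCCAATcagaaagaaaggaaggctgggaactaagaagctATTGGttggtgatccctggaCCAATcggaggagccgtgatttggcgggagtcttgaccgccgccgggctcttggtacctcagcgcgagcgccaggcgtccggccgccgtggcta
CLSPN (chr1:35769929-35770228, minus strand): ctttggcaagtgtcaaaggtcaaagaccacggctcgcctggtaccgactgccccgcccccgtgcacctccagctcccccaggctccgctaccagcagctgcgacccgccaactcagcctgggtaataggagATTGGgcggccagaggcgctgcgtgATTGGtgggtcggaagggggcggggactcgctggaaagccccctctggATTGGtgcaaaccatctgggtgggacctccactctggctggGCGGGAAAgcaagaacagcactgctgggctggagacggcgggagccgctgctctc
UNG (chr12:109097347-109097646, plus strand): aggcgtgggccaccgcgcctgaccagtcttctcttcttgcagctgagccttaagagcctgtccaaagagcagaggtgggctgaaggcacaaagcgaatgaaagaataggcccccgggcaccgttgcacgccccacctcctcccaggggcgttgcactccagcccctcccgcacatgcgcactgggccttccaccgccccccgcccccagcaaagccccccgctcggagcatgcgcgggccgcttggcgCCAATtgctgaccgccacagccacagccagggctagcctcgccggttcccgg
POLE (chr12:132687293-132687592, minus strand): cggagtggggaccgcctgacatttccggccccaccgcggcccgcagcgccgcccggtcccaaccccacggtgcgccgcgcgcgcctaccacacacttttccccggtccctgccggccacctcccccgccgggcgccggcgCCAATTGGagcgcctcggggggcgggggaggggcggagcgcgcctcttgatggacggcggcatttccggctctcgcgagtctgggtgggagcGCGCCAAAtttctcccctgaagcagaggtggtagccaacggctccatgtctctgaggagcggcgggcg
CCNE1 (chr19:29811741-29812040, plus strand): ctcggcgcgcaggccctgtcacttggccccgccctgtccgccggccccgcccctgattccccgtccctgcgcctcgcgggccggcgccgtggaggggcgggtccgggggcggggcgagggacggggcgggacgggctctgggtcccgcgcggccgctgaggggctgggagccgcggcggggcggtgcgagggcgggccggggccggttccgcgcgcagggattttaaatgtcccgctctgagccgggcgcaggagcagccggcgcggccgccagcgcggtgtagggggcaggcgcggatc
MCM6 (chr2:135876394-135876693, minus strand): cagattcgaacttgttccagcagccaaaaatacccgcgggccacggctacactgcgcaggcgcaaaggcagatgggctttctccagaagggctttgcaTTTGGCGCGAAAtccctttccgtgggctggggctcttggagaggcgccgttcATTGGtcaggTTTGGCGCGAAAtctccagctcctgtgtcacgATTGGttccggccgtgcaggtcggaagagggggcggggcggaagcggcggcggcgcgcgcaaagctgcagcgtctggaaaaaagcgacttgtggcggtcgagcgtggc
MCM10 and CDC45 hold CCAAT words but no E2F word of this search, CLSPN holds GCGGGAAA, and MCM6 holds TTTGGCGCGAAA at 2 places. The search took exact words only. Words 1 base away from TTTGGCGC were missed, such as TTTGGCGG in MCM10 and CDC45 and CTTGGCGC in UNG. Among the 3 printed for their small change, POLE holds an E2F word and a pair of overlapping CCAAT words, UNG holds 1 CCAAT word, and CCNE1 holds neither. By subgroup, an E2F word was found in 6 of 8 licensing windows, 3 of 5 helicase activation windows, 4 of 6 polymerase windows and 1 of 6 nucleotide supply windows. The log2 fold change for PXN siRNA under vehicle had a median of -1.35 over the 23 members with an E2F word, and of -1.26 over the 20 without. Those ranges overlapped almost wholly, at -2.43 to -0.37 with a word and -2.49 to -0.27 without. The split rests on 1 window per gene, so a member counted without a word lacks it in that window only. A match is a description of letters in this window, not a binding site.

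The first comparison asks what PXN siRNA does to replication genes without androgen. All 50 fell with PXN siRNA under vehicle, with no overlap between the 3 PXN siRNA libraries and the 3 non-specific siRNA libraries for any member. Of all 18468 tested genes, 26.3% were called lower and 23.9% higher in the same test (adjusted p under 0.05), and 29.6% had every PXN siRNA library below every non-specific library. The members' median log2 fold change was -1.34, against 0.02 over all tested genes, and their range was -2.49 for MCM10 to -0.27 for CCNE1. By size, 10 fell at least 4-fold, 28 fell by between 2-fold and 4-fold, and 12 fell by less than 2-fold. Under upper-quartile scaling the median of all tested genes moved to 0.117 and the split of calls to 20.3% lower and 30.7% higher. The members' median was then -1.24, and CCNE1 and CCNE2 lost their calls. Without PXN siRNA with vehicle replicate 2 all 50 were called lower, with a median of -1.47.

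Summed over the 50 genes, PXN siRNA libraries held 1003, 1078 and 929 CPM with DHT and 814, 1024 and 836 CPM with vehicle, whereas non-specific siRNA libraries held 2329, 2397 and 2486 CPM with DHT and 2077, 2115 and 2222 CPM with vehicle. As a share of the mean of non-specific siRNA with vehicle, the sum stood at 46.9% ± 3.47 with PXN siRNA and DHT, at 41.7% ± 5.40 with PXN siRNA and vehicle, and at 112% ± 3.68 with non-specific siRNA and DHT (SD, n = 3). The helicase activation genes had the lowest such share with PXN siRNA and vehicle, 26.0% ± 6.56, and the polymerases and primase had the highest, 61.4% ± 5.27. Per kilobase of exon, the most abundant member in non-specific siRNA with vehicle was PCNA, at 96.1 ± 6.36 CPM per kb, and the least abundant was E2F2, at 1.43 ± 0.227 CPM per kb (SD, n = 3). TK1 (56.4 ± 1.11 CPM per kb), MCM7 (36.8 ± 0.841) and RRM1 (33.4 ± 0.621) came next after PCNA in that group. The counts behind single values ran between 50, for E2F2, and 6323, for MCM7.

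**Figure D1:**
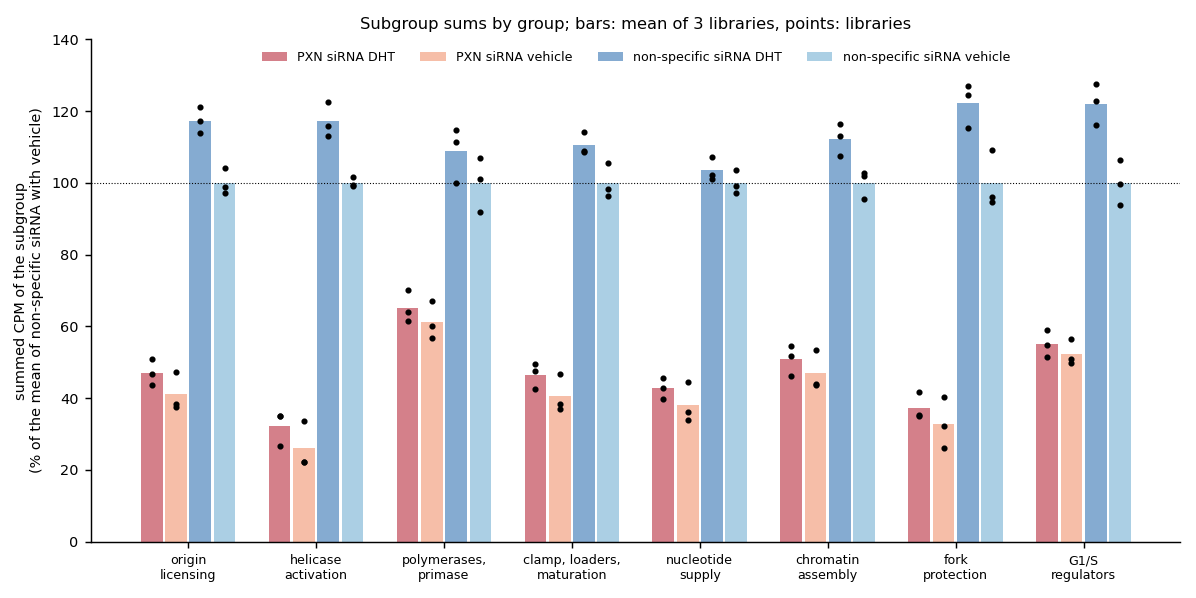
Summed CPM of the 8 subgroups, as a percentage of the mean of non-specific siRNA with vehicle (bars: mean of 3 libraries, points: single libraries; groups left to right as in the legend). With PXN siRNA and vehicle, helicase activation genes stood at 26.0% and polymerases and primase at 61.4%, and in every subgroup all PXN siRNA libraries lay below all non-specific siRNA libraries.

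All 10 origin licensing genes fell with PXN siRNA under vehicle, with a median log2 fold change of -1.40. CDC6, which loads the MCM ring with ORC and CDT1, fell most (chromosome 17, 40287633 to 40304657; GENCODE 29 positions on GRCh38 here and below). It had 9.07, 14.7 and 8.03 CPM with PXN siRNA and vehicle, against 47.4, 48.9 and 55.5 CPM with non-specific siRNA and vehicle. The highest of the PXN siRNA values, that of replicate 2, lay far below every control library, and the log2 fold change was -2.26 ± 0.17 (SE, adjusted p = 1.56e-07). MCM7, a ring subunit (chromosome 7, 100092728 to 100101940), fell least in this subgroup. Its values were 83.1, 94.5 and 84.2 CPM with PXN siRNA and 157, 163 and 164 CPM with non-specific siRNA, a log2 fold change of -0.89 ± 0.06 (adjusted p = 1.13e-07). The 6 subunits of the ring lay between -1.62 (MCM5) and -0.89, although they act as one complex. The origin recognition subunits fell further, with log2 fold changes of -2.003 ± 0.20 for ORC1 and -1.80 ± 0.20 for ORC6.

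The 6 genes of helicase activation had a median of -1.82. MCM10, which helps the assembled helicase to open DNA (chromosome 10, 13161554 to 13211104), fell most of all 50 members. It had 3.43, 6.81 and 3.87 CPM with PXN siRNA and vehicle, against 26.1, 25.7 and 27.4 CPM with non-specific siRNA and vehicle. That left 17.8% of the control mean, with a log2 fold change of -2.49 ± 0.20 (adjusted p = 3.37e-07). CDC45, the helicase cofactor, stood at 18.4% of the control mean (-2.44 ± 0.18). GINS3, a subunit of the GINS complex (chromosome 16, 58295080 to 58406144), fell least, with 2.92, 3.93 and 3.71 CPM with PXN siRNA against 8.31, 8.57 and 7.57 CPM with non-specific siRNA (-1.21 ± 0.12, adjusted p = 1.99e-06). Its partners GINS1, GINS2 and GINS4 lay at -1.75, -1.87 and -1.77.

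Polymerase and primase genes changed less and were split, with a median of -1.13 over 7 genes. PRIM1, the catalytic primase subunit (chromosome 12, 56731596 to 56752373), fell most. It had 3.51, 5.25 and 4.08 CPM with PXN siRNA and vehicle, against 10.9, 11.3 and 12.1 CPM with non-specific siRNA and vehicle (-1.42 ± 0.12, adjusted p = 6.08e-07). In its annotation 21.6% of exon bases are shared with other genes, so its counts are less certain. POLD3, an accessory subunit of polymerase delta (chromosome 11, 74493851 to 74669117), fell least, at 15.8, 15.5 and 16.7 CPM with PXN siRNA against 19.6, 19.6 and 21.5 CPM with non-specific siRNA (-0.34 ± 0.07, adjusted p = 0.00134). POLE, the catalytic subunit of the leading-strand polymerase, had 45.6, 53.6 and 47.6 CPM with PXN siRNA against 57.4, 72.8 and 59.8 CPM with non-specific siRNA (-0.37 ± 0.10). The highest PXN siRNA library of POLE lay just below the lowest control library, so the groups were close though apart. POLA1, the catalytic subunit of polymerase alpha, also fell by little (-0.61 ± 0.10), while its partner POLA2 stood at -1.35 ± 0.08.

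The 8 genes of the sliding clamp, its loaders and Okazaki fragment maturation were the most even subgroup, between -1.69 and -1.01 with a median of -1.26. RFC3, a subunit of the clamp loader (chromosome 13, 33818049 to 33966558), had 6.48, 9.61 and 7.45 CPM with PXN siRNA and vehicle, against 22.8, 25.1 and 28.1 CPM with non-specific siRNA and vehicle (-1.69 ± 0.14, adjusted p = 4.60e-07). LIG1, the ligase that seals Okazaki fragments (chromosome 19, 48115445 to 48170603), had 9.86, 10.6 and 8.99 CPM with PXN siRNA against 20.2, 21.2 and 17.8 CPM with non-specific siRNA (-1.01 ± 0.09, adjusted p = 5.15e-07). PCNA, the clamp itself, had 59.6, 66.6 and 57.7 CPM with PXN siRNA against 143, 131 and 150 CPM with non-specific siRNA (-1.21 ± 0.08). FEN1, the flap endonuclease, lay at -1.59 ± 0.13.

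Nucleotide supply and uracil removal covered the widest range after the G1/S regulators, with a median of -1.47 over 6 genes. RRM2, the regulated small subunit of ribonucleotide reductase (chromosome 2, 10120698 to 10131419), had 19.3, 32.3 and 15.8 CPM with PXN siRNA and vehicle, against 107, 100.2 and 110 CPM with non-specific siRNA and vehicle (-2.23 ± 0.19, adjusted p = 5.17e-07). The PXN siRNA libraries varied more among themselves than the controls did, with replicate 2 highest, and all lay far below every control library. UNG, the uracil glycosylase (chromosome 12, 109097574 to 109110992), fell least, with 30.3, 36.1 and 34.2 CPM with PXN siRNA against 47.2, 45.2 and 49.8 CPM with non-specific siRNA (-0.50 ± 0.07, adjusted p = 5.72e-05). TK1 and TYMS, the thymidine salvage and thymidylate synthesis enzymes, stood at 26.7% and 28.2% of the control mean. DUT, which removes dUTP, stood at 53.5%.

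Among the 4 chromatin genes, UHRF1 and CHAF1B were the extremes. UHRF1, which recruits the maintenance DNA methyltransferase to new DNA (chromosome 19, 4903080 to 4962154), had 3.05, 4.58 and 2.85 CPM with PXN siRNA and vehicle, against 14.4, 15.8 and 15.4 CPM with non-specific siRNA and vehicle (-2.12 ± 0.16, adjusted p = 2.22e-07). CHAF1B, a subunit of the histone chaperone CAF-1 (chromosome 21, 36385378 to 36419015), had 16.05, 18.3 and 15.1 CPM with PXN siRNA against 29.3, 30.1 and 29.3 CPM with non-specific siRNA (-0.84 ± 0.08, adjusted p = 9.33e-07). Its partner CHAF1A fell almost equally, at -0.88 ± 0.08.

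Of the 3 genes of fork protection and replication-coupled degradation, CLSPN and DTL fell to 18.5% and 19.6% of the control mean, while TIPIN fell to 58.6%. CLSPN encodes claspin, the checkpoint mediator at forks (chromosome 1, 35720218 to 35769967). It had 2.07, 3.80 and 2.43 CPM with PXN siRNA and vehicle, against 14.5, 13.9 and 16.3 CPM with non-specific siRNA and vehicle (-2.43 ± 0.17, adjusted p = 1.22e-07). TIPIN, of the fork protection complex (chromosome 15, 66336206 to 66386746), had 9.81, 13.4 and 12.99 CPM with PXN siRNA against 18.7, 19.96 and 23.2 CPM with non-specific siRNA (-0.77 ± 0.11, adjusted p = 6.29e-05). TIPIN shares 21.0% of its exon bases with a ribosomal protein pseudogene.

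The 6 G1/S regulators divided into a strongly and a weakly changed set. E2F8, a late repressor of E2F targets (chromosome 11, 19224063 to 19241620), had 1.53, 2.37 and 1.46 CPM with PXN siRNA and vehicle, against 7.75, 8.52 and 9.21 CPM with non-specific siRNA and vehicle (-2.25 ± 0.17, adjusted p = 1.91e-07). E2F2, an activator, and E2F7, a repressor, lay at -2.16 ± 0.20 and -1.94 ± 0.17. CDC25A, the phosphatase that activates cyclin-dependent kinases, fell to 50.2% of the control mean. CCNE1, encoding cyclin E1 (chromosome 19, 29811898 to 29824308), changed least of all 50 members. It had 15.3, 14.0 and 15.1 CPM with PXN siRNA against 18.0, 17.2 and 18.3 CPM with non-specific siRNA (-0.27 ± 0.08, adjusted p = 0.0160). CCNE2, encoding cyclin E2, had 8.15, 9.99 and 9.39 CPM with PXN siRNA against 10.6, 12.0 and 11.7 CPM with non-specific siRNA (-0.32 ± 0.09, adjusted p = 0.0123), and 37.1% of its exon bases are shared with other genes. The call of either cyclin E gene also ends at an adjusted p threshold of 0.01.

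**Figure D2:**
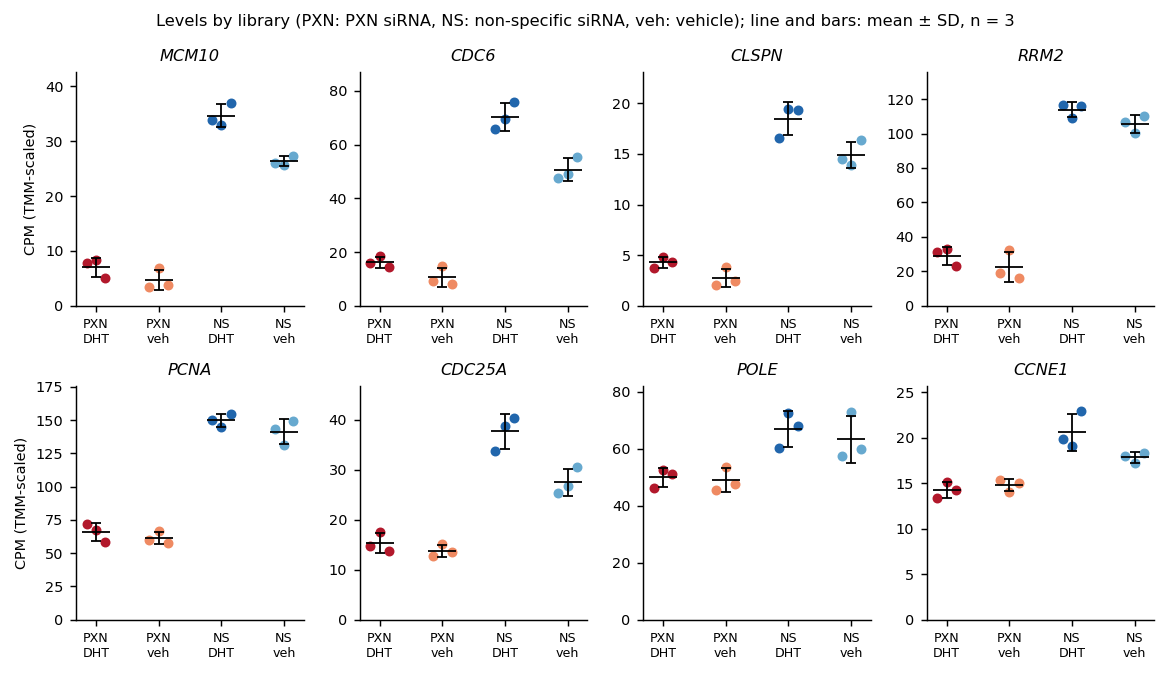
TMM-scaled CPM by library for 8 members (points: libraries, line and bars: mean and SD, n = 3; the left pair of groups received PXN siRNA and the right pair non-specific siRNA). MCM10, CDC6, CLSPN and RRM2 fell to 17.8% to 21.3% of non-specific siRNA with vehicle, whereas POLE and CCNE1 stood at 77.2% and 83.1%.

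The same comparison under DHT asks what PXN siRNA does to these genes in the presence of androgen. Again all 50 genes fell and no groups overlapped, with a median log2 fold change of -1.32 against 0.03 over all tested genes. In this comparison 26.7% of tested genes were called lower (4939 genes, with 4622 higher), and 30.4% had every PXN siRNA library below every non-specific one. Upper-quartile scaling moved the median of all genes to 0.130 and the calls to 20.8% lower and 32.2% higher, with the members' median at -1.22 and all 50 still called. DTL, which targets CDT1 for degradation during S phase, fell most, with 6.10, 7.40 and 5.22 CPM with PXN siRNA and DHT against 31.5, 33.3 and 33.9 CPM with non-specific siRNA and DHT (-2.40 ± 0.18, adjusted p = 2.00e-07). POLD3 and POLE changed least under DHT, both at -0.42. The subgroup medians under DHT and under vehicle were -1.40 and -1.40 for licensing, -1.78 and -1.82 for helicase activation, -1.04 and -1.13 for polymerases, and -1.18 and -1.26 for clamp and maturation genes. They were -1.26 and -1.47 for nucleotide supply, -1.25 and -1.20 for chromatin genes, -2.11 and -2.35 for fork protection, and -1.47 in both for the G1/S regulators.

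**Figure D3:**
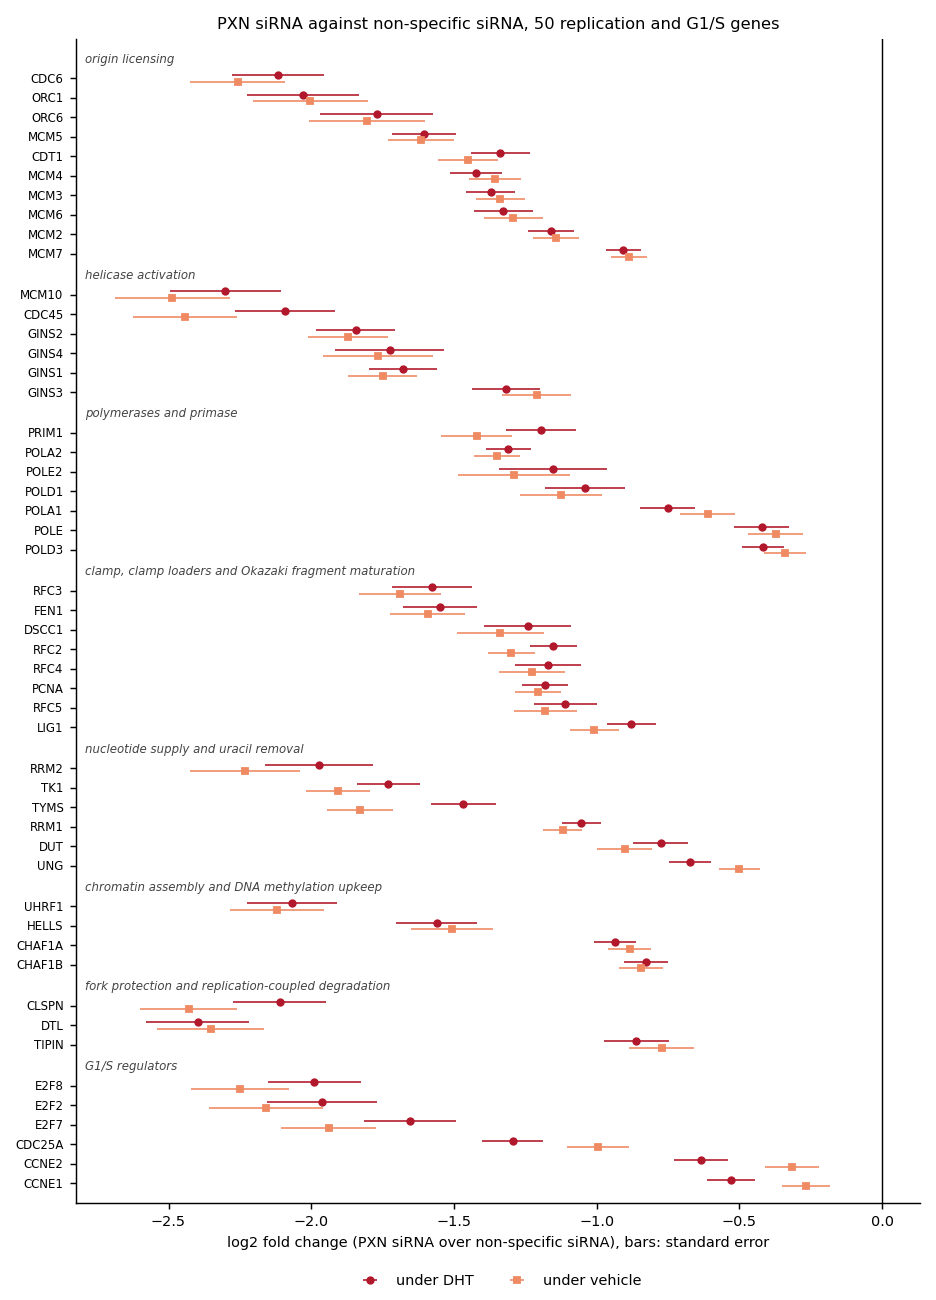
Log2 fold change of PXN siRNA over non-specific siRNA (x axis) for the 50 genes by subgroup, under DHT (dark red circles, upper of each pair) and under vehicle (orange squares, lower), with standard errors. All values lie below 0, between -2.49 and -0.27 under vehicle and between -2.40 and -0.42 under DHT.

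The fall differed in size within most of 12 pairs of members compared. The pairs were chosen with earlier results of these data known and do not stand for other partners. For each pair, the log2 ratio of their counts within each library was compared between the 6 PXN siRNA and the 6 non-specific siRNA libraries, by an exact two-sided permutation of siRNA labels within each treatment. With 400 arrangements 0.005 is the smallest p this test can give, and p-values were adjusted over 24 tests (12 pairs, siRNA and DHT). By this test the ratio changed for 10 of 12 pairs, but how often ratios of other gene pairs change was not tested. MCM5 and MCM7 lay at the ends of the ring's range under vehicle, as GINS2 and GINS3 did for GINS. An unequal fall in those pairs is therefore no independent result. RRM2, CDC6, RFC3 and E2F8 fell most in their subgroups under vehicle, and POLD3 fell least in its own. The same limit holds for the pairs with these genes. RRM2 against RRM1, the large reductase subunit, shifted most: the log2 ratio averaged -1.26 ± 0.235 and -1.58 ± 0.409 with PXN siRNA under DHT and vehicle, against -0.32 ± 0.0463 and -0.40 ± 0.0425 with non-specific siRNA under DHT and vehicle (difference -1.06, exact p = 0.005, adjusted p = 0.012). POLE2 fell further than POLE (difference -0.84) and POLA2 further than POLA1 (-0.65), each with exact p = 0.005 and adjusted p = 0.012. In the delta polymerase the catalytic subunit POLD1 fell further than the accessory POLD3, so the ratio of POLD3 to POLD1 was higher by 0.71 on the log2 scale (exact p = 0.005, adjusted p = 0.012).

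Of the other pairs, CDC6 fell further than CDT1 (difference -0.81), MCM5 further than MCM7 (-0.72), GINS2 further than GINS3 (-0.61), RFC3 further than RFC2 (-0.42) and ORC1 further than ORC6 (-0.23), all with exact p = 0.005 and adjusted p = 0.012. E2F8 against E2F7 gave -0.32 (exact p = 0.01, adjusted p = 0.02). For CHAF1B against CHAF1A (0.08, exact p = 0.055, adjusted p = 0.088) and CCNE2 against CCNE1 (-0.08, exact p = 0.42, adjusted p = 0.458) the ratio did not pass. CHAF1B against CHAF1A passed without PXN siRNA with vehicle replicate 3 (0.0901, adjusted p = 0.02 by the exact permutation test) and with the replicate block (0.075, adjusted p = 0.0441 by the exact permutation test). Every one of the 10 pairs that passed has its direction in the means of both treatments.

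**Figure D4:**
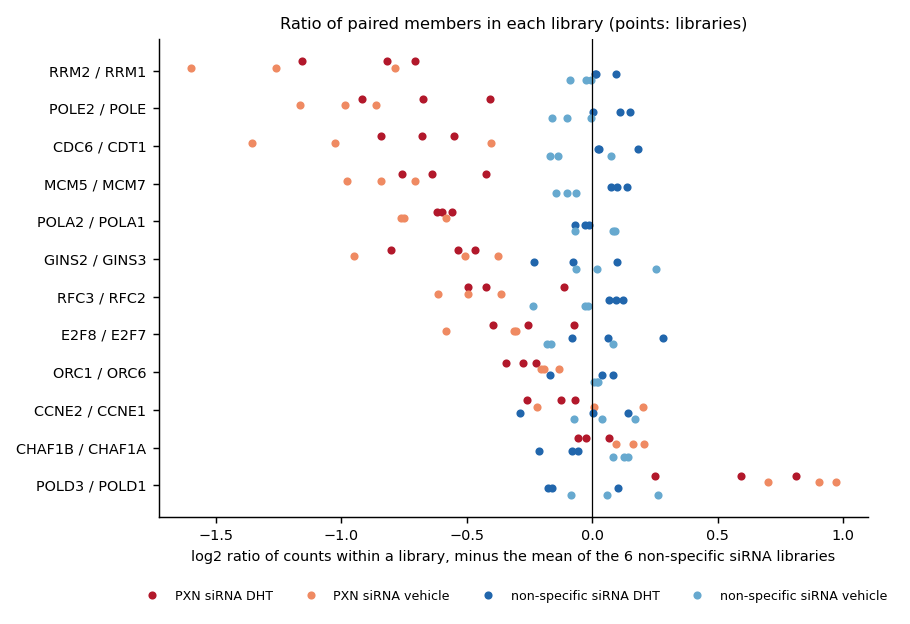
Log2 ratio of the counts of 2 members within each library, less the mean of the 6 non-specific siRNA libraries (x axis; points: libraries, groups from top to bottom in each row as in the legend). The ratio of RRM2 to RRM1 lies lowest with PXN siRNA, a mean difference of -1.06, and that of POLD3 to POLD1 lies highest, at 0.71.

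The differences with DHT were mostly upward and far smaller than those with PXN siRNA. With non-specific siRNA, 47 of 50 lay above 0, against 47.8% of all tested genes. Their median log2 fold change was 0.17 against -0.01 over all tested genes. Only CDC25A and UNG passed the test, both higher, where 2.72% of all tested genes were called higher, so this count is near the share of all genes. CDC25A had 33.8, 38.7 and 40.4 CPM with DHT against 25.4, 26.7 and 30.6 CPM with vehicle (0.45 ± 0.10, adjusted p = 0.0193). UNG had 56.9, 57.5 and 63.2 CPM with DHT against 47.2, 45.2 and 49.8 CPM with vehicle (0.32 ± 0.07, adjusted p = 0.0172). In both genes every DHT library lay above every vehicle library. CDC25A lost its call without any one of vehicle replicates 1 and 2 and DHT replicates 2 and 3 with non-specific siRNA, and UNG without vehicle replicate 1 or 2 or DHT replicate 3, so the count fell to 0 without vehicle replicate 1, vehicle replicate 2 or DHT replicate 3. The count was 4 without DHT replicate 1 of that siRNA, where 3.61% of all genes tested were called higher, and 1 without DHT replicate 2 (1.58%). It was 10 without PXN siRNA with vehicle replicate 2 (3.01%). That library is in neither group of this comparison, but the joint fit uses it for the filter, the scaling and the shared estimate of spread. Without it 18863 genes were tested.

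The sample titles number the libraries but state no pairing, so a block on the replicate number rests on the correlations given below. With that block, 11 of the 50 were called higher with DHT, where 6.17% of all tested genes were. They were MCM4, MCM5, CDC6 and CDT1 of licensing, GINS3, POLD1, FEN1, UNG, UHRF1, DTL and CDC25A. CDC6 had 65.6, 69.3 and 75.7 CPM with DHT against 47.4, 48.9 and 55.5 CPM with vehicle (0.47, block adjusted p = 0.0150). DTL had 31.5, 33.3 and 33.9 CPM with DHT against 22.8, 23.2 and 25.2 CPM with vehicle (0.47, block adjusted p = 0.0193). GINS3 had 10.1, 11.8 and 10.6 CPM with DHT against 8.31, 8.57 and 7.57 CPM with vehicle (0.41, block adjusted p = 0.0101). In all 3 genes, the groups did not overlap. MCM5 (0.34, block adjusted p = 0.00840), MCM4 (0.30, 0.0132), UHRF1 (0.43, 0.0138), CDT1 (0.32, 0.0220), FEN1 (0.30, 0.0411) and POLD1 (0.23, 0.0439) were the others.

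With non-specific siRNA the DHT difference varied in size across roles, but differences between subgroups were not tested. Every DHT library lay above every vehicle library for 25 of the 50 genes with non-specific siRNA, against 10.2% of all tested genes. All 10 licensing genes were among them, as were 5 of 6 helicase activation genes, but none of the 7 polymerase and primase genes and only 2 of the 8 clamp and maturation genes. With PXN siRNA the same count was 1 of 10 licensing, 1 of 6 helicase activation, 1 of 7 polymerase and primase and 1 of 8 clamp and maturation genes. Of all tested genes, 7.02% were so placed in that arm. These counts include vehicle replicate 2 of PXN siRNA, where 47 of the 50 genes were highest in its group. They were not made by subgroup without it, so they give no comparison of the arms. The median log2 fold changes with non-specific siRNA were 0.31 for licensing, 0.31 for fork protection, 0.24 for the G1/S regulators, 0.22 for helicase activation, 0.21 for chromatin genes, 0.13 for polymerases, 0.10 for clamp and maturation and 0.06 for nucleotide supply. TK1 lay the other way, with 97.0, 92.8 and 99.999 CPM with DHT against 103, 104 and 107 CPM with vehicle (-0.12 ± 0.11, adjusted p = 0.665), and every DHT library lay below every vehicle library.

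With PXN siRNA, 45 of 50 lay above 0 with DHT, against 47.9% of all tested genes, and the median was 0.21 against -0.01 over all tested genes. By subgroup the medians were 0.43 for fork protection, 0.30 for helicase activation, 0.29 for the G1/S regulators, 0.26 for licensing, 0.20 for clamp and maturation, 0.18 for nucleotide supply, 0.15 for chromatin genes and 0.12 for polymerases. None passed the test, where 0.184% of all tested genes were called higher. At an unadjusted p under 0.05, there were 21 members, 20 of them upward, where 7.46% of all tested genes were under it and 4.90% were so upward. DESeq2's Wald test called 3, all higher, where it called 0.704% of all tested genes higher. With the replicate block 3 passed, where 1.35% of all tested genes were called higher: CDC6, CDT1 and CLSPN. CDC6 had 15.9, 18.4 and 14.3 CPM with PXN siRNA and DHT, against 9.07, 14.7 and 8.03 CPM with PXN siRNA and vehicle (0.62, block adjusted p = 0.0404). CDT1 had 14.0, 14.5 and 10.3 CPM with DHT against 9.07, 9.53 and 10.1 CPM with vehicle (0.43, block adjusted p = 0.0389). CLSPN had 3.72, 4.77 and 4.34 CPM with DHT against 2.07, 3.80 and 2.43 CPM with vehicle (0.63, block adjusted p = 0.0480). CDT1 did not overlap between its groups, whereas in CDC6 and CLSPN the vehicle replicate 2 lay above the lowest DHT library.

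The libraries overlapped for most members here. Every DHT library lay above every vehicle library for 4 members, CDT1, GINS3, PRIM1 and LIG1, against 7.02% of all tested genes. When PXN siRNA with vehicle replicate 2 was set aside, 37 of the 50 had all 3 DHT libraries above vehicle replicates 1 and 3, against 15.2% of all tested genes. That library was singled out because most members were highest in it, so leaving it out raises such counts by construction. Without it 8 members were called higher, where 0.376% of all genes tested were (CDC6, MCM10, CDC45, FEN1, TYMS, RRM2, CLSPN and DTL) and the median was 0.34. Without PXN siRNA with DHT replicate 3, CDT1 alone was called, where 0.0902% of all genes tested were called higher. CCNE2 lay the other way, with 7.93, 7.81 and 8.07 CPM with DHT against 8.15, 9.99 and 9.39 CPM with vehicle (-0.21 ± 0.10, adjusted p = 0.667), with no overlap.

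**Figure D5:**
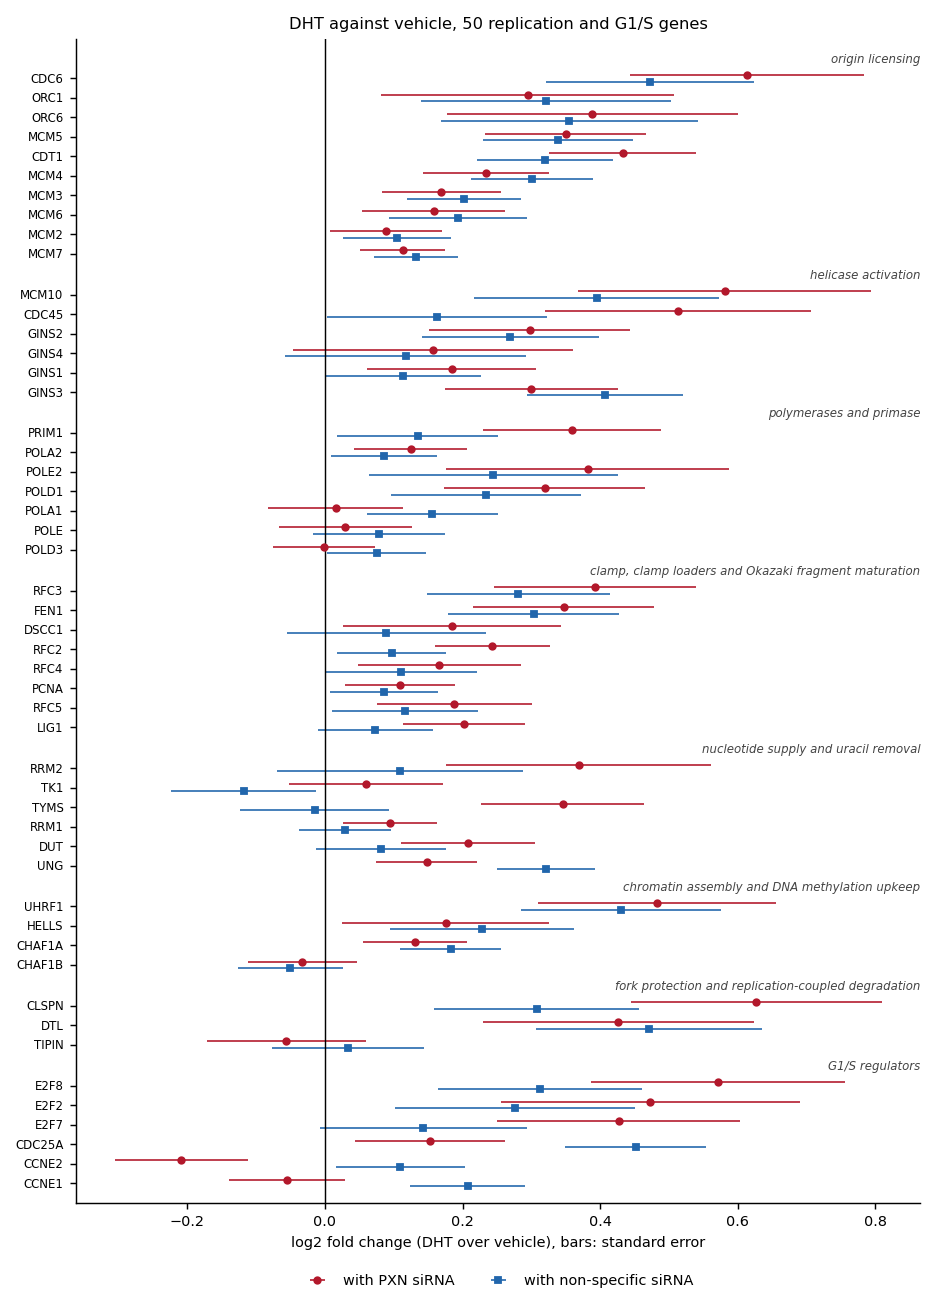
Log2 fold change of DHT over vehicle (x axis) for the 50 genes by subgroup, with PXN siRNA (dark red, upper of each pair) and with non-specific siRNA (blue, lower), with standard errors. Most values lie to the right of 0 in both arms, with 45 genes above 0 with PXN siRNA and 47 with non-specific siRNA, and CCNE2 lies at -0.21 with PXN siRNA.

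The test of whether DHT acted differently in the 2 siRNA arms called no member, and 0% of all tested genes. At an unadjusted p under 0.05 there were 3 members, where 4.21% of all tested genes were, so the members' share is near that of all genes. CCNE2 (difference of log2 fold changes -0.32 ± 0.13) and CCNE1 (-0.26 ± 0.12) had the smaller DHT value with PXN siRNA. TYMS (0.36 ± 0.16) had the larger, and for all 3 the adjusted p of edgeR's quasi-likelihood test was 1. The median difference over the members was 0.04, or 0.20 without PXN siRNA with vehicle replicate 2. The comparisons of DHT within the arms share no library, and 43 genes lay above 0 in both. Members moved together within libraries, with 47 of the 50 highest in PXN siRNA with vehicle replicate 2 among its group. The 43 genes are therefore not independent observations, and the share of all genes above 0 in both arms was not counted.

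After PXN siRNA, the replication genes stayed below their level in non-specific siRNA cells with vehicle, with DHT as without it. Against non-specific siRNA with vehicle, PXN siRNA with DHT left all 50 genes lower, where 26.2% of all tested genes were called lower, and no groups overlapped. Upper-quartile scaling moved the median of all genes to 0.113 and the calls to 20.4% lower and 30.3% higher, where TMM had 23.6% higher. The members' median log2 fold change was -1.13 (-1.03 with upper-quartile scaling), against the -1.34 with PXN siRNA and vehicle over the same control libraries. CDC45 (-1.93 ± 0.18), DTL (-1.93 ± 0.18) and MCM10 (-1.91 ± 0.19) were lowest. MCM10 had 7.77, 8.26 and 5.08 CPM with PXN siRNA and DHT, which is 26.7% of the control mean, where PXN siRNA with vehicle stood at 17.8%. CCNE1 (-0.32 ± 0.08) and POLD3 and POLE (both -0.34) were nearest to the control. In 45 genes the value was nearer to the control with DHT than with vehicle, which is the count above 0 given earlier for the PXN siRNA arm.

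Among 58 other genes of replication and G1/S control, most also fell with PXN siRNA. Of them 46 fell and 2 rose under vehicle, where 26.3% of all tested genes were called lower and 23.9% higher. Under DHT 45 fell and 4 rose, where 26.7% of all tested genes were called lower and 25% higher. Their median log2 fold changes were -0.74 under vehicle and -0.79 under DHT, against 0.02 and 0.03 over all tested genes. EXO1, an exonuclease of repair and replication, had the lowest value under vehicle: 2.26, 3.31 and 2.12 CPM with PXN siRNA against 12.8, 11.3 and 13.4 CPM with non-specific siRNA (-2.28 ± 0.16, adjusted p = 1.13e-07). ASF1B, a histone chaperone, and CCNA2, encoding cyclin A2, followed at -2.25 ± 0.21 and -2.14 ± 0.17. RRM2B, the ribonucleotide reductase subunit induced by p53, was highest, at 209, 151 and 178 CPM with PXN siRNA against 149, 113 and 132 CPM with non-specific siRNA (0.45 ± 0.14, adjusted p = 0.0158). Its call was lost without non-specific siRNA vehicle replicate 2 or 3 and without PXN siRNA vehicle replicate 1. RBL2, which encodes the pocket protein p130 of resting cells, rose by 0.25 ± 0.06 (adjusted p = 0.00258), and POLD4, a small delta polymerase subunit, had 0.25 ± 0.12 (adjusted p = 0.0830).

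With DHT and non-specific siRNA, 3 of these 58 rose and none fell, where 2.72% of all tested genes were called higher and 2.16% lower. Both counts are near those shares. With the replicate block 9 rose and 4 fell, where 6.17% of all tested genes were called higher and 5.93% lower. The 4 lower genes are again near the share of all genes. The block added DBF4, TICRR, PRIM2, CDCA7, CDK2 and E2F1 to the higher genes, and its lower genes were ORC4, TOP1, RRM2B and ASF1A. ORC5, an origin recognition subunit, had 58.1, 73.3 and 84.9 CPM with DHT against 44.2, 45.4 and 45.1 CPM with vehicle (0.68 ± 0.14, adjusted p = 0.0103), and missed the threshold without DHT replicate 3. MCM8, a helicase of homologous recombination, rose by 0.40 ± 0.10 (adjusted p = 0.0323) and SLBP, which binds histone mRNA, by 0.27 ± 0.06 (adjusted p = 0.0166). Both lost the call without any of vehicle replicates 1 and 2 or DHT replicates 2 and 3, and MCM8 also without vehicle replicate 3. With PXN siRNA no gene of the 58 passed for DHT, where 0.184% of all tested genes were called higher. With the replicate block EXO1 (0.69, block adjusted p = 0.0473) and E2F1 (0.45, block adjusted p = 0.0464) rose, where 1.35% of all tested genes were called higher. ORC5 had 33.1, 48.7 and 44.8 CPM with DHT against 32.9, 40.0 and 32.0 CPM with vehicle (0.27 ± 0.14, adjusted p = 0.760). Among the 50 members, 24 share exon bases with another gene in GENCODE 29, and 8 share over 20% (MCM2, GINS4, POLA2, PRIM1, TYMS, RRM2, TIPIN and CCNE2). The sources used here do not give the strand setting with which reads were counted, so reads of overlapping genes may be mixed in those.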

How the data were processed

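RNA of 12 LNCaP libraries was isolated with RNeasy Plus Mini kits and sequenced from TruSeq Stranded mRNA libraries, per the labels' protocols. Whole-number read counts for each gene symbol were deposited. The submitters' processing notes name Trimmomatic 0.32, STAR 2.4.2a, featureCounts, Subread 1.5.0p3 and GRCh38, but the sources used here give neither annotation nor strand setting.

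Groups came from each sample's label. Genes were kept by edgeR's filterByExpr (18468 kept, 17669 left out), scaled by TMM, and fitted with 1 quasi-likelihood model of 4 group means over all 12 libraries (8 residual degrees of freedom; R 4.3.3, edgeR 4.0.16, limma 3.58.1, DESeq2 1.42.0). Calls use Benjamini-Hochberg adjusted p under 0.05 over all tested genes, and SE is the log2 fold change over the root of F. The script was tested on simulated data. No replicates agreed within sampling noise (chi-square per gene at least 6.51). Figures used matplotlib 3.10.9.

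The members, subgroups, pairs of members and the 58 other genes were chosen with earlier results of these data known. In each subgroup the member with the lowest and the one with the highest change for PXN siRNA under vehicle is given in every library. For DHT, members called with or without the replicate block are named, and for the interaction the 3 smallest p. Of the 58, the 3 lowest and 3 highest under vehicle and those called for DHT are named. CDC45, PCNA, POLE, DTL, CCNE2, TK1 and others outside that rule were named after their values were seen.

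Same-numbered libraries deviated together: correlations of deviations from group means were 0.145 to 0.383 for DHT with non-specific siRNA, 0.100 to 0.307 for DHT with PXN siRNA and 0.121 to 0.210 for PXN siRNA under vehicle. They were 0.0769 to 0.284 for PXN siRNA under DHT, where the lowest missed the limit of 0.1. For PXN siRNA with DHT against non-specific siRNA with vehicle they were -0.0256 to 0.261, and the lowest missed it too. The replicate block is a single term shared by all 4 groups, so its calls also rest on these comparisons.

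Alternatives changed scaling, filter, test, threshold, the libraries fitted, the replicate block and single libraries.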

Additional observations from a re-analysis of the deposited data

How the results depend on the processing

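All 50 members kept a lower call for PXN siRNA in each of its comparisons without any single library, and fewer were called (43 under vehicle, 43 under DHT, 39 for PXN siRNA with DHT against non-specific siRNA with vehicle) only against a fold change of 1.5, besides 48 under vehicle with upper-quartile factors or an adjusted p under 0.01. Against a fold change of 1.5, 10.6%, 12.1% and 9.51% of all tested genes were called in either direction in those comparisons. Under vehicle, 51% were with upper-quartile factors and 37.2% at an adjusted p under 0.01. For DHT with non-specific siRNA, 2 members were called, where 2.72% of all tested genes were called higher. There were 7 with no low-count filter (1.74% of all genes higher) and 8 with DESeq2's Wald test (3.67%). Limma-voom called 7 (2.71%), only the groups of the contrast 10 (2.66%) and the replicate block 11 (6.17%). An adjusted p under 0.01 and a fold change of 1.5 each left 0 (1.45% and 0.374% of all genes higher). Leaving out single libraries gave 0 to 10 (1.53% to 3.61%). For DHT with PXN siRNA, 0 members were called, where 0.184% of all tested genes were called higher. There were 3 with no low-count filter (0.468%), 3 with DESeq2's Wald test (0.704%) and 3 with the replicate block (1.35%). Leaving out single libraries gave 0 to 8 (0.0529% to 0.376%). For the interaction no alternative called a member.

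Of the pair ratios, 10 passed for siRNA, against 11 with the replicate block and 10 to 11 without single libraries, and 3 passed for DHT, against 6 with the replicate block and 2 to 5 without single libraries. The DHT difference of the ratio of POLA2 to POLA1 was 0.017 and ran between -0.0082 and 0.0457 without single libraries. The replicate block changed no other call of a member, except those listed for DHT. The cause of these shifts was not tested.

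Members' counts of at least 50 in every library leave depth a minor limit. With 3 libraries a group, spread between replicates limits the DHT comparisons, in which the largest member difference was 0.63 on the log2 scale. Reads of overlapping genes could not be separated, and replicates may be technical.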

Other observations

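Replicate 2 of PXN siRNA with vehicle was the highest of its group in PXN and in the replication genes. It was also highest in the luminal marker sum (3172 CPM, against 2749 and 2875 CPM in replicates 1 and 3). The same held for the mitochondrial share of counts (8.95%, against 8.22% and 8.13%). In the summed markers of other cell types it lay between them (42.8 CPM, against 45.4 and 40.7 CPM). PXN itself had 15.2, 21.2 and 14.9 CPM in replicates 1 to 3 of PXN siRNA with vehicle, and the 50 members summed to 814, 1024 and 836 CPM in the same libraries. With PXN siRNA and DHT, PXN had 19.96, 18.1 and 16.6 CPM and the members summed to 1003, 1078 and 929 CPM, so that replicate 3 was lowest in both but the highest libraries differed. Whether the remaining PXN transcript has a part in the members' level was not tested.

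DHT also shifted 3 of the 12 ratios between paired members, each over 12 libraries by the exact permutation test within siRNA arms, adjusted over 24 tests. MCM5 gained on MCM7 by 0.22 on the log2 scale (exact p = 0.01, adjusted p = 0.02), and POLE2 gained on POLE by 0.26 (exact p = 0.015, adjusted p = 0.0277), a call lost without PXN siRNA with vehicle replicate 1 or 3 (0.22 and 0.26, adjusted p = 0.0831 and 0.06 by the exact permutation test). CHAF1B lost against CHAF1A, at -0.20 (exact p = 0.005, adjusted p = 0.012). In the MCM5 and POLE2 pairs the gene that gained with DHT is also the one that fell further with PXN siRNA.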
